A study of Saccharomyces cerevisiae with 9 samples.

Results

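The 38 array features named for the yeast mitochondrial genome, of 6868 features in all, were followed through a 30 min exposure to 0.7 M NaCl in 3 strains that differ in RNA polymerase II. They were taken by their systematic names, which are the open reading frame names beginning with Q0, both mitochondrial rRNAs and the tRNAs whose name ends in Q with or without a number. They comprise 8 protein genes, 2 rRNAs, 9 reading frames inside introns, 10 tRNAs and 9 further reading frames. The S2A strain (labelled CTD2A) carries an Rpb1 whose carboxy-terminal domain (CTD) begins with repeats that have alanine in place of Ser2 and ends in wild-type repeats. The S5A strain (CTD5A) begins with repeats that have alanine in place of Ser5 and likewise ends in wild-type repeats, and the wild-type strain (CTD14) has wild-type repeats throughout. The strains also differ in the total number of repeats and the mutants in the number of substituted repeats, so that on these arrays these cannot be told apart from the kind of substitution. The paper states, without showing the data, that control plasmids with different numbers of wild-type repeats gave the same expression response to salt. In all 3 strains the chromosomal RPB1 is missing and the CTD variant is supplied from a plasmid, so the wild-type cells are also a plasmid strain. Each strain was measured on 3 arrays, 9 in all, each comparing total RNA of the salt-treated culture with that of its own unstressed culture in rich medium. Each value is a log2 ratio, salt-treated over unstressed, after the authors' normalization, that is, a change relative to the other RNAs of the sample and not a level. The labels number the arrays of a strain as replicates without saying that they came from separate cultures, so the p-values measure only the spread between these arrays.

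The mitochondrial genome of budding yeast is not transcribed by RNA polymerase II. A single-subunit polymerase, Rpo41, and its specificity factor Mtf1, both encoded in the nucleus, make long primary transcripts that often hold several genes and are cut into mRNAs, rRNAs and tRNAs. COX1 and COB are interrupted by introns, several of which hold reading frames for maturases, reverse transcriptases or endonucleases. The products of the genome are hydrophobic core subunits of cytochrome bc1 (complex III), cytochrome c oxidase (complex IV) and ATP synthase, a ribosomal protein, and the RNAs that translate them. All other subunits of these complexes come from nuclear genes, which polymerase II transcribes.

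Of the 38 members, 18 had a value on all 9 arrays and were among the 5645 features tested. These 18 were 6 protein genes, both rRNAs, 8 intron reading frames and 2 tRNAs, while none of the 9 further reading frames was complete. A member missing from any array was not tested there, and S2A replicate 1 alone gave a value for only 18 members, against 23 to 34 on the other arrays. The salt-treated RNA carried the same dye on every array, so that any dye effect common to the strains drops out of their differences and remains in each strain's own response. Salt-induced nuclear genes (GPD1, HSP12, CTT1, STL1, GRE2 and HSP26) had positive values on 9 of 9 arrays, between 1.49 and 9.24, which fixes the direction of the ratio. The median over all complete features lay between -0.11 and -0.0069 on every array. A response was called at an adjusted p below 0.05 and a strain difference at or below 0.025, from limma with Benjamini-Hochberg adjustment over all 5645 features.

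After NaCl, most of the mitochondrial genes that changed fell, in every strain, and only tRNAs rose. In S2A 10 of 18 genes passed, all of them lower (all features: 68.7% called, 37.1% lower and 31.6% higher). In S5A 7 of 18 passed, 6 lower and 1 higher (all features: 63.1% called, 34.2% lower and 28.9% higher), and in wild-type 7 of 18 passed, 5 lower and 2 higher (all features: 70.6% called, 38.3% lower and 32.3% higher). The shares called, 55.6% in S2A and 38.9% in S5A and in wild-type, were below those of all features, a difference that was not tested. The wild-type count was 2 without wild-type replicate 2, and in S5A it was 1 without replicate 1 of that strain and 4 without replicate 3. The median estimate of the 18 genes was -0.46 in S2A, -0.20 in S5A and -0.15 in wild-type, beside medians over all features of -0.043, -0.067 and -0.062 in that order.

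Between strains, the mitochondrial genes leaned lower in S2A, without a call against wild-type. For S2A minus wild-type, 0 of 18 genes passed in limma, where the background was 0 of 5645 features (0% called), and 6 of 18 had an unadjusted p below 0.05, all lower (all features: 8.49%, and 3.76% lower). These were the 15S rRNA, AI2, BI3, BI4, COX3 and tK(UUU)Q. The estimate was negative for 17 of 18 genes, OLI1 being the exception (all features: 48.9% negative). The median was -0.45 beside 0.0069 over all features. This lean was not particular to the mitochondrial genes. The nuclear tRNAs with complete values were negative in 115 of 115 cases, with a median of -0.89. Of these tRNAs, 70 had an unadjusted p below 0.05 in limma (all features: 8.49%). In 7 of the 18 mitochondrial genes (AI2, AI3, ATP6, COB, BI3, BI4 and COX3) the S2A arrays all lay below the wild-type arrays, which held for 6.25% of all features. No mitochondrial gene lay wholly above, beside 6.24% of all features. With wild-type replicate 2 and S2A replicate 3 left out, 16 of 18 genes were negative (all features: 50.6%) and 11 lay wholly below (all features: 15.6%).

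For S5A minus wild-type, 0 of 18 genes passed in limma (all features: 7.95% called) and 1, COX3, had an unadjusted p below 0.05 (all features: 31.6%). The median was -0.072 beside 0.0094 over all features, and 3 genes (15S rRNA, AI2 and COX3) lay wholly below wild-type, beside 18.5% of all features. For S5A minus S2A, 1 of 18 genes, BI3, passed in limma (all features: 3.31% called, 1.51% higher), and 3 (AI2, BI3 and BI4) had an unadjusted p below 0.05 (all features: 27.3%). Of the 18 estimates 17 were positive (all features: 49.5% negative), with a median of 0.29 beside 0.0055 over all features. In 6 genes (AI2, AI5_BETA, BI2, BI3, BI4 and tK(UUU)Q) the S5A arrays lay wholly above S2A, beside 18.7% of all features. Each pair of these comparisons shares the arrays of one strain, so they do not count as separate evidence. Averaged over the 18 genes, the log2 ratio was -0.44 ± 0.26 in S2A, -0.065 ± 0.097 in S5A and 0.099 ± 0.14 in wild-type (SD, n = 3 arrays each), and these averages hold both the positive tRNAs and the negative intron frames. The intron frames alone averaged -0.82 ± 0.045 in S2A, -0.40 ± 0.23 in S5A and -0.34 ± 0.21 in wild-type.

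The mRNAs of the mitochondrial protein genes gave 3 calls over the 3 strains, all of them lower after NaCl. ATP6, a membrane subunit of ATP synthase, fell in S2A and in S5A, and COB, the cytochrome b of complex III, fell in S2A. The 3 core subunits of cytochrome c oxidase, COX1, COX2 and COX3, and OLI1, the subunit of the ATP synthase rotor ring, passed the test in no strain. Of the 6 genes, 2 fell in S2A, 1 in S5A and none in wild-type (all features: 37.1%, 34.2% and 38.3% lower, in that order), and in wild-type 2 had an unadjusted p below 0.05 (ATP6 lower and COX3 higher).

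ATP6 had log2 ratios of -1.002, -0.72 and -0.43 in S2A and -0.83, -0.073 and -0.37 in S5A, against -0.36, -0.30 and -0.36 in wild-type. Every array was below 0, all 3 S2A values lay below the wild-type values, and the S5A values lay on both sides of them. The fitted change of ATP6 was -0.72 in S2A (SE 0.15, limma adjusted p = 0.00131), -0.43 in S5A (SE 0.15, adjusted p = 0.0259) and -0.34 in wild-type (SE 0.15, adjusted p = 0.0595). The wild-type fall of ATP6 did pass under 7 of 20 alternatives, so the calls do not mark it as a fall of the mutants alone. The S5A call was lost without S5A replicate 1 (estimate -0.22, limma adjusted p = 0.224) or replicate 3 (adjusted p = 0.0701) and after median centring (estimate -0.37, adjusted p = 0.0622). COB had -0.29, -0.38 and -0.87 in S2A and -0.28, 0.17 and -0.40 in S5A, against -0.24, -0.043 and -0.093 in wild-type. The S2A values again lay below all wild-type values, the nearest by a small margin. COB fell by 0.51 in S2A (SE 0.14, limma adjusted p = 0.00686), while its estimates were -0.17 in S5A (adjusted p = 0.298) and -0.13 in wild-type (adjusted p = 0.431), and without S2A replicate 3 the S2A estimate was -0.34 (adjusted p = 0.0721).

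COX3 stood out among the oxidase subunits by the order of its arrays. It had -0.087, -0.25 and -0.47 in S2A and -0.35, 0.0058 and -0.25 in S5A, against 0.058, 0.76 and 0.14 in wild-type. Neither mutant overlapped with wild-type, although the S5A replicate 2 and wild-type replicate 1 values were close together. The difference was -0.59 for S2A minus wild-type (95% interval -1.03 to -0.14, limma adjusted p = 0.569) and -0.52 for S5A minus wild-type (95% interval -0.96 to -0.069, adjusted p = 0.113), and neither passed the threshold. COX1 had -0.012, -0.18 and -0.60 in S2A and -0.15, -0.0070 and -0.00027 in S5A, against 0.014, 0.16 and -0.13 in wild-type. COX2 had -0.12, -0.056 and -0.74 in S2A and -0.36, 0.16 and -0.31 in S5A, against -0.22, 0.66 and -0.066 in wild-type. The strains overlapped for both genes, and the highest COX2 and COX3 values came from the same array, wild-type replicate 2. OLI1 had 0.32, -0.32 and 0.60 in S2A and 0.35, 0.0066 and -0.012 in S5A, against 0.46, -0.18 and 0.25 in wild-type, with mean changes above 0 in every strain and the strains fully overlapping.

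**Figure D1:**
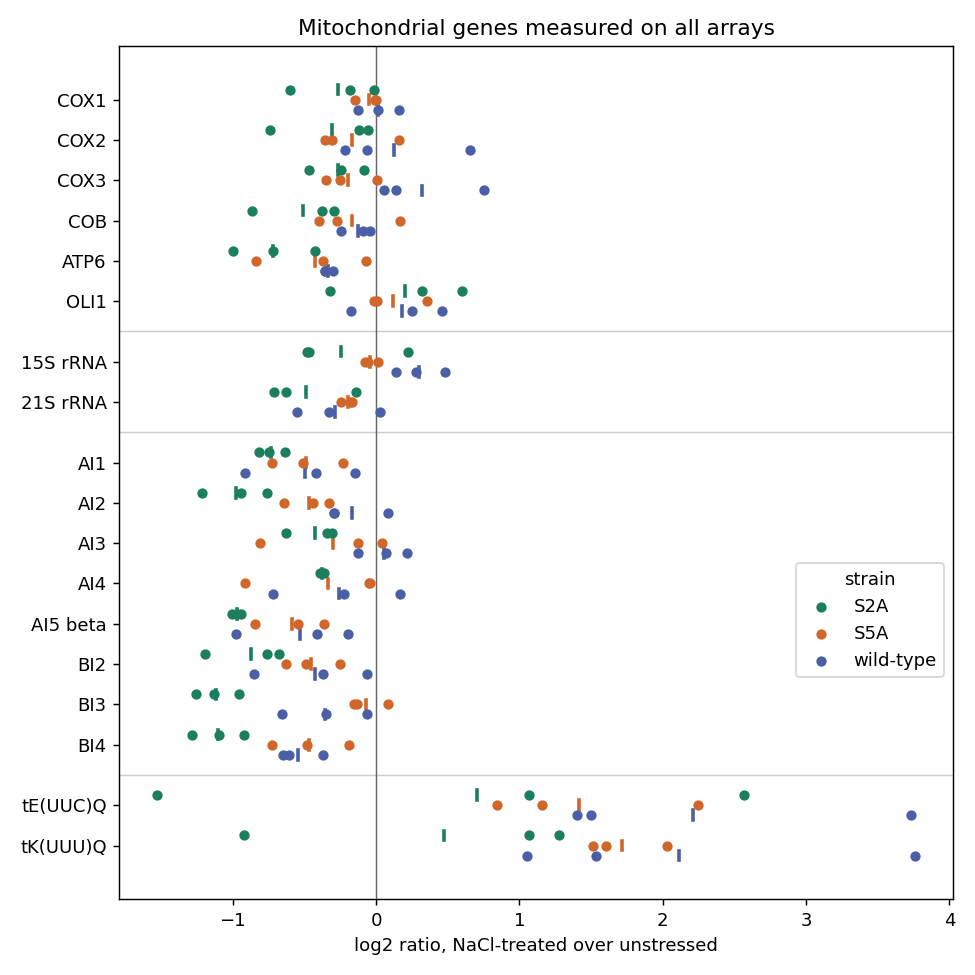
Log2 ratio of salt-treated over unstressed RNA (x axis) for the 18 mitochondrial genes with a value on every array (y axis), one point per array and a short bar at the mean of each strain (n = 3), with protein genes, rRNAs, intron reading frames and tRNAs separated by lines. The S2A points lie to the left for most genes, BI3 in S2A lies between -1.25 and -0.96, and the tRNAs spread far more widely than the other genes, between -1.53 and 3.76.

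The 2 mitochondrial rRNAs, which form the small and large subunits of the mitochondrial ribosome, had small values, and 1 of them passed the test in S2A. The 21S rRNA had -0.14, -0.71 and -0.63 in S2A and -0.25, -0.17 and -0.18 in S5A, against 0.027, -0.55 and -0.33 in wild-type. It fell by 0.49 in S2A (SE 0.13, limma adjusted p = 0.00762), with the strains overlapping, and the adjusted p was 0.0671 without S2A replicate 2 and 0.0514 without replicate 3. The 15S rRNA had 0.22, -0.48 and -0.47 in S2A and 0.014, -0.054 and -0.078 in S5A, against 0.28, 0.48 and 0.14 in wild-type. Its S5A values were tightly grouped below all 3 wild-type values, and S2A replicate 1 stood apart from the other S2A arrays. The 15S rRNA passed in no strain, with a lowest adjusted p of 0.0731 in wild-type (limma), where its estimate was 0.30.

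The reading frames inside introns made up most of the calls, and all of their calls were downward. In S2A 7 of the 8 measured frames fell, in S5A 5 fell, and in wild-type 5 fell (all features: 37.1%, 34.2% and 38.3% lower, in that order). The 5 COX1 frames were AI1 and AI2, whose products are reverse transcriptases and maturases of group II introns, AI3, which encodes an endonuclease, AI4, whose product is also an endonuclease, and AI5_BETA. The 3 COB frames were BI2, BI3 and BI4, whose products include maturases. Several of these frames are read in continuity with the exons upstream, so that a feature can overlap its host gene and its neighbours, and the frames are not independent measurements of each other. How probes were assigned to overlapping features is not given in the sources used here.

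BI3 gave the 1 called difference between strains. It had -0.96, -1.25 and -1.13 in S2A and 0.080, -0.15 and -0.13 in S5A, against -0.064, -0.35 and -0.65 in wild-type. All S2A values lay below every value of the other strains, and the S5A values lay at the upper end of the wild-type range or above it. BI3 fell by 1.11 in S2A (SE 0.12, limma adjusted p = 1.46e-05) and by 0.36 in wild-type (SE 0.12, adjusted p = 0.0217), whereas the S5A estimate was -0.068 (adjusted p = 0.637). The wild-type call was lost without wild-type replicate 2 (limma adjusted p = 0.0590) or replicate 3 (estimate -0.21, adjusted p = 0.197). The S5A minus S2A difference was 1.05 (SE 0.17, 95% interval 0.67 to 1.42, limma adjusted p = 0.0132), or 2.07-fold. BI3 lost this call in each fit that left out one S2A or S5A array, although the difference stayed between 0.97 and 1.12 over the fits that left out any one array, with adjusted p between 0.0137 and 0.0603.

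The other COB frames were also lowest in S2A. BI4 had -1.29, -0.92 and -1.10 in S2A and -0.72, -0.19 and -0.48 in S5A, against -0.37, -0.65 and -0.61 in wild-type, and it fell in all 3 strains, by 1.10, 0.46 and 0.54 in that order (limma adjusted p = 1.66e-05, 0.00681 and 0.00228). The S2A values lay below all others, while S5A and wild-type overlapped. The S5A minus S2A difference of BI4 was 0.64 (95% interval 0.26 to 1.02, limma adjusted p = 0.0480), short of the threshold. BI2 had -1.20, -0.67 and -0.76 in S2A and -0.63, -0.25 and -0.49 in S5A, against -0.066, -0.85 and -0.37 in wild-type. Its S2A values lay below the S5A values and overlapped the wild-type values, where replicate 2 was low, and it fell in each strain (limma adjusted p = 0.000493 in S2A, 0.0247 in S5A and 0.0290 in wild-type). The BI2 call was lost in S5A without S5A replicate 1 or 3 and in wild-type without wild-type replicate 2 or 3, and the BI4 call in S5A without S5A replicate 1 (limma adjusted p between 0.0648 and 0.238). After median centring the BI2 call was lost in S5A (limma adjusted p = 0.0518) and in wild-type (adjusted p = 0.0618), and in wild-type also with only the arrays compared (adjusted p = 0.0650).

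Among the COX1 frames, AI5_BETA had -0.97, -0.94 and -1.002 in S2A and -0.85, -0.55 and -0.37 in S5A, against -0.20, -0.97 and -0.41 in wild-type. It fell in every strain, and the S2A arrays were close together and below the S5A arrays, while wild-type replicate 2 reached the S2A range. Without that array the wild-type estimate of AI5_BETA was -0.30 (limma adjusted p = 0.0618). AI3 had -0.30, -0.34 and -0.63 in S2A and -0.81, 0.044 and -0.13 in S5A, against 0.066, 0.22 and -0.12 in wild-type. It fell by 0.42 in S2A (limma adjusted p = 0.0299) and passed in neither other strain, with 1 low S5A array, and the S2A call was lost without any one S2A array (adjusted p between 0.0528 and 0.161) and after median centring (adjusted p = 0.0612). The values of AI1, AI2 and AI4 had been seen before these frames were singled out. AI2 had -0.76, -0.94 and -1.22 in S2A and -0.64, -0.33 and -0.44 in S5A, against -0.29, 0.081 and -0.29 in wild-type, and here the 3 strains did not overlap at all, with S2A lowest, S5A between and wild-type highest. AI2 fell by 0.97 in S2A and by 0.47 in S5A, and its wild-type estimate was -0.17 (limma adjusted p = 3.93e-05, 0.00617 and 0.231). The S2A minus wild-type difference of AI2 was -0.81 (95% interval -1.18 to -0.43), with an adjusted p of 0.569 in limma, a value that no feature on the array went below in that comparison. AI1 fell in all 3 strains, by 0.73 in S2A, 0.49 in S5A and 0.49 in wild-type, and AI4 passed the test in none. The S5A calls of AI1 and AI2 were lost without S5A replicate 1 (limma adjusted p = 0.0982 and 0.0510), that of AI1 also without S5A replicate 3 (adjusted p = 0.0568), and the wild-type call of AI1 without wild-type replicate 2 (estimate -0.28, adjusted p = 0.0917).

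Set against their host gene on the same array, the frames were lower in most cases. In 61 of 72 pairs of a frame and an array, the log2 ratio of the frame lay below that of COX1 or COB. Frames of the same host share its value on each array, so these pairs are not separate observations. Averaged over the 5 COX1 frames, the frame minus host value was -0.43 ± 0.21 in S2A, -0.38 ± 0.23 in S5A and -0.30 ± 0.29 in wild-type (SD, n = 3 arrays each). Averaged over the 3 COB frames it was -0.52 ± 0.37 in S2A, -0.16 ± 0.20 in S5A and -0.32 ± 0.34 in wild-type (SD, n = 3 arrays each). The strains overlapped widely in both. The frame minus host value of BI3 was -0.60 ± 0.31 in S2A, 0.10 ± 0.37 in S5A and -0.23 ± 0.38 in wild-type, and BI3 lay below COB on 6 of 9 arrays. That of AI3 was -0.16 ± 0.13 in S2A, -0.25 ± 0.37 in S5A and 0.037 ± 0.030 in wild-type, and AI3 lay below COX1 on 5 of 9 arrays.

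**Figure D2:**
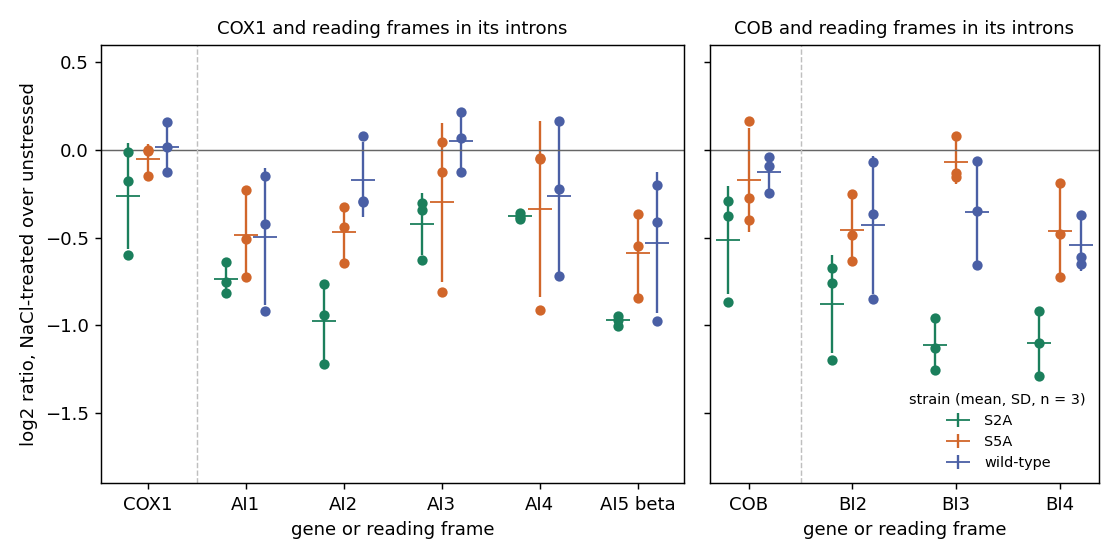
Log2 ratio of salt-treated over unstressed RNA (y axis) for COX1 and COB, left of the dashed lines, and for the reading frames in their introns, with one point per array and the mean and SD of each strain (n = 3). The frames lie below their host on most arrays, and the S2A means of BI3 and BI4 are -1.11 and -1.10 while the S2A mean of COB is -0.51.

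The 2 mitochondrial tRNAs with complete values had the largest positive values among the 18 complete members and also the largest spread. tK(UUU)Q, a tRNA for lysine, had 1.06, 1.28 and -0.92 in S2A and 2.03, 1.52 and 1.61 in S5A, against 1.05, 3.76 and 1.53 in wild-type. tE(UUC)Q, a tRNA for glutamate that is transcribed together with COB, had 2.57, 1.07 and -1.53 in S2A and 2.24, 0.84 and 1.16 in S5A, against 1.502, 3.74 and 1.40 in wild-type. S2A replicate 3 was the only array with negative values for these tRNAs, and wild-type replicate 2 had the highest. tK(UUU)Q rose by 1.72 in S5A (SE 0.49, limma adjusted p = 0.0111) and by 2.12 in wild-type (adjusted p = 0.00289), and tE(UUC)Q rose by 2.21 in wild-type (SE 0.66, adjusted p = 0.0115). In S2A neither passed. Without wild-type replicate 2 the wild-type estimate of tE(UUC)Q was 1.45 (limma adjusted p = 0.108), and without S5A replicate 1 the S5A estimate of tK(UUU)Q was 1.56 (adjusted p = 0.0607). No strain difference of a tRNA was called, and the intervals were wide, with S2A minus wild-type at -1.64 for tK(UUU)Q (95% interval -3.18 to -0.099) and -1.51 for tE(UUC)Q (95% interval -3.57 to 0.55). The tE(UUC)Q value turned to 0.37 when wild-type replicate 2 and S2A replicate 3 were both left out.

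The nuclear tRNAs, made by RNA polymerase III, moved with tK(UUU)Q and tE(UUC)Q on these arrays, which were the only mitochondrial tRNAs with complete values. Averaged over the 115 nuclear tRNAs with complete values, of 128 on the array, the log2 ratio was 0.98, 0.81 and -0.15 in S2A and 1.34, 1.16 and 1.25 in S5A, against 1.004, 1.89 and 1.35 in wild-type. The same 2 arrays were the lowest and the highest of the 9. The part of this shared variation in the tRNA values was not tested. The other mitochondrial classes did not have wild-type replicate 2 as a uniform extreme, since its protein gene mean was the highest of the 9 arrays at 0.18 and its intron frame mean was -0.52, the lowest of the wild-type arrays. S2A replicate 3 was the lowest of the 9 arrays also for the protein genes (-0.42) and the intron frames (-0.87). For the rRNAs it had -0.55, and S2A replicate 2 was lower at -0.60.

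**Figure D3:**
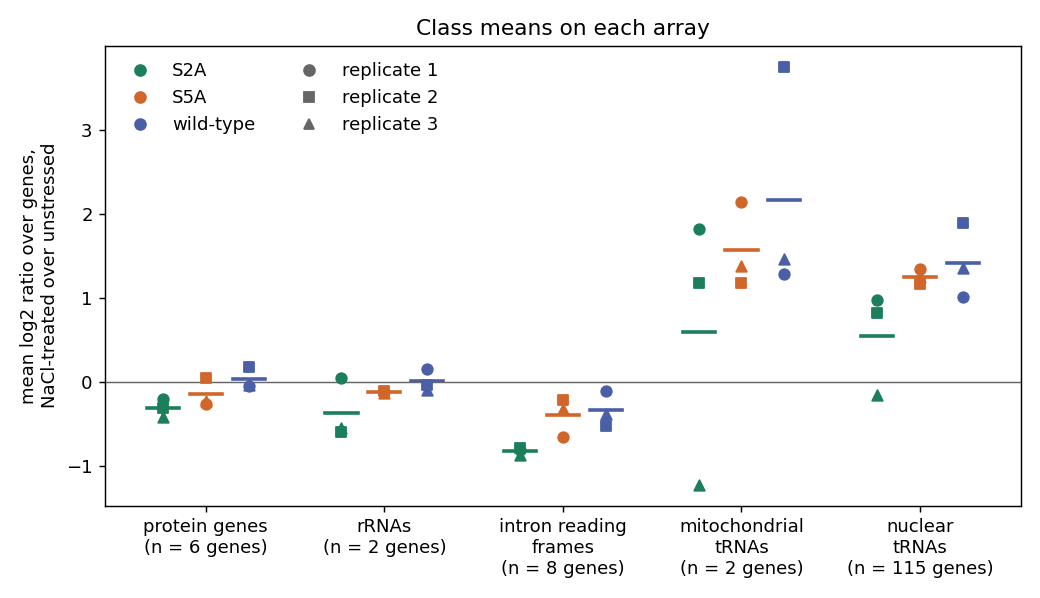
Mean log2 ratio of salt-treated over unstressed RNA (y axis) on each array for classes of mitochondrial genes and for 115 nuclear tRNAs, with strains in colour, replicates by symbol and a bar at the mean of each strain (n = 3). The intron frames of S2A lie between -0.87 and -0.78, and both tRNA classes are lowest on S2A replicate 3 and highest on wild-type replicate 2.

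The members without complete values included the remaining protein genes. ATP8, a small membrane subunit of ATP synthase, had -0.59 and -0.26 on the 2 S2A arrays that gave a value and -0.39 and -0.94 on the 2 S5A arrays, against -0.18, 0.27 and -0.054 in wild-type. All its mutant values lay below all its wild-type values. In the fit of features with at least 2 values per strain, ATP8 fell by 0.66 in S5A (limma adjusted p = 0.0151), with an S5A minus wild-type difference of -0.68 (adjusted p = 0.106). VAR1, the protein of the small mitochondrial ribosomal subunit, had -0.14 and -1.11 in S2A and 0.59 and -0.52 in S5A, against -1.62, 0.56 and -0.73 in wild-type, a spread in which no order of the strains could be seen. The intron frame AI5_ALPHA had -0.60 and -0.22 in S2A and -0.36, -0.27 and -0.18 in S5A, against 0.24, -0.48 and -0.089 in wild-type. The incomplete tRNAs in this fit did not all move alike. tF(GAA)Q rose by 2.06 in wild-type (limma adjusted p = 0.0130), while tR(UCU)Q1 fell by 0.82 in S5A (limma adjusted p = 0.0489). The tR(UCU)Q1 estimates were negative in every strain, and it had 0.17 on S2A replicate 3, against -0.40 on S2A replicate 2. tY(GUA)Q, tM(CAU)Q1 and tT(UGU)Q1 passed in no strain. This fit held 28 of the 38 members, and 3 further reading frames (Q0017, Q0092 and Q0143) had no value on any array.

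The nuclear genes that act with these transcripts were examined from lists of 76 genes, of which 74 were found on the array with complete values. In S5A minus wild-type, 3 of the 74 were called, all lower (all features: 3.83% lower), and all 3 encode subunits of complex III. QCR2 had -0.11, -0.25 and 0.15 in S5A, against 0.63, 0.64 and 0.34 in wild-type, a difference of -0.61 (SE 0.15, limma adjusted p = 0.0249). QCR8 had 0.017, 0.60 and 0.56 in S5A, against 1.04, 1.36 and 1.41 in wild-type, a difference of -0.88 (SE 0.21, limma adjusted p = 0.0233). QCR9 had 0.25, 0.25 and 0.13 in S5A, against 0.88, 1.41 and 0.72 in wild-type, a difference of -0.79 (SE 0.18, limma adjusted p = 0.0197). In a fit blocked on replicate number, 6 of the 74 were called (ATP20, COR1, CYT1, QCR8, QCR9 and RIP1), and QCR2 was not (limma adjusted p = 0.0270). The share of all features called in the blocked fit is not given here, so this count does not show a change particular to these genes. In S5A minus S2A, 1 of the 74 was called (all features: 3.31% called), again QCR8, which had 1.88, 1.42 and 1.98 in S2A (difference -1.37, SE 0.21, limma adjusted p = 0.0125).

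Cytochrome b is the mitochondrially encoded member of the same complex, and its S5A minus wild-type difference was -0.043 (SE 0.19, 95% interval -0.48 to 0.39, limma adjusted p = 0.905). All 9 nuclear subunits of complex III had negative differences (all features: 48.9% negative), 7 of them with an unadjusted p below 0.05 (all features: 31.6%). Their median was -0.72, from -1.05 for QCR10, whose adjusted p was 0.0968 in limma, to -0.020 for QCR6. Their mean log2 ratio was 0.71 ± 0.10 in S2A and 0.075 ± 0.18 in S5A, against 0.69 ± 0.093 in wild-type (SD, n = 3 arrays each), while COB itself averaged -0.17 in S5A, against -0.13 in wild-type. For complex IV, 0 of 9 nuclear subunits were called in limma (all features: 7.95% called) and 1 had an unadjusted p below 0.05 (all features: 31.6%), with a median of -0.18 and a range from -0.36 for COX5A to 0.24 for COX9. For ATP synthase, 0 of 14 were called and 3 had an unadjusted p below 0.05 (the same shares of all features apply), with a median of -0.088, from -0.53 for ATP20 to 0.24 for ATP17. In S2A minus wild-type no nuclear list gene was called by limma (all features: 0% called), 5 of 74 had an unadjusted p below 0.05 (all features: 8.49%), and the complex III, complex IV and ATP synthase medians were 0.030, 0.077 and 0.098. In S5A minus wild-type, over the fits that left out one array, 0 to 2 of the 74 genes were called, and 0 in each fit that lacked an S5A array, wild-type replicate 2 or 3, or S2A replicate 3. The QCR8 difference for S5A minus S2A lost its call without S2A replicate 1 or 3 or any one S5A array (limma adjusted p between 0.0256 and 0.0603).

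**Figure D4:**
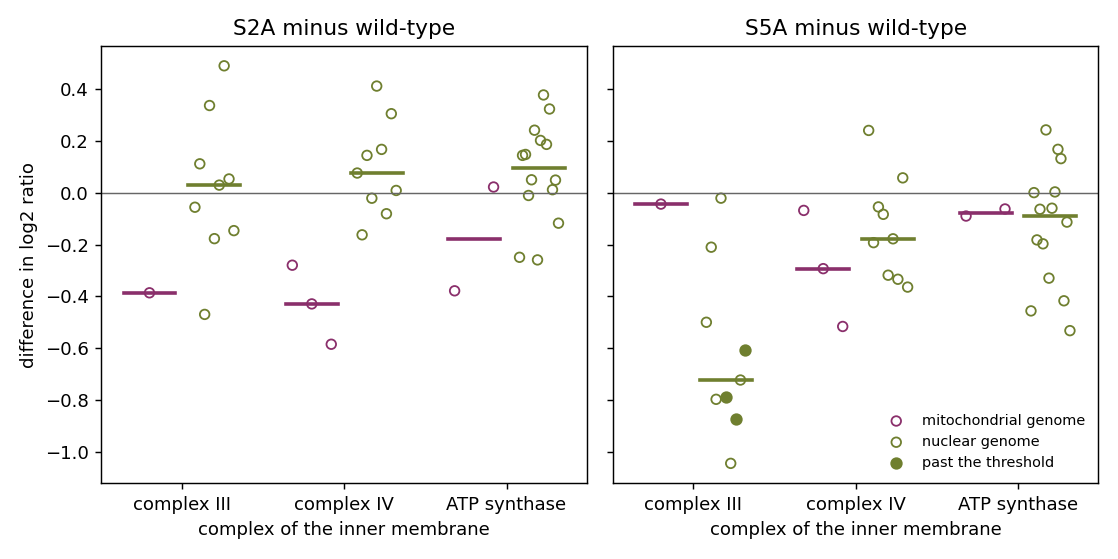
Difference between strains in the log2 ratio of salt-treated over unstressed RNA (y axis), S2A minus wild-type on the left and S5A minus wild-type on the right, for subunits of 3 inner membrane complexes encoded in the mitochondrial and the nuclear genome, with one point per gene, a bar at the median and filled points for genes at an adjusted p at or below 0.025. The nuclear complex III subunits of S5A lie below 0 with a median of -0.72, and COB lies at -0.043.

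The mitochondrial RNA polymerase and its specificity factor had S5A minus wild-type differences of opposite sign, and neither was called. RPO41 had -0.50, -0.15 and -0.29 in S2A and -0.36, -0.59 and -0.34 in S5A, against -0.0068, 0.27 and -0.11 in wild-type. It fell by 0.31 in S2A (SE 0.11, limma adjusted p = 0.0263) and by 0.43 in S5A (adjusted p = 0.00639), and all arrays of both mutants lay below all wild-type arrays. The S2A call was lost without S2A replicate 1 (estimate -0.22, limma adjusted p = 0.165) or replicate 3 (adjusted p = 0.0720), after median centring (adjusted p = 0.0590) and with only the arrays compared (adjusted p = 0.0529), and the S5A call without S5A replicate 2 (adjusted p = 0.0600). Its difference was -0.37 for S2A minus wild-type (adjusted p = 0.569) and -0.48 for S5A minus wild-type (limma adjusted p = 0.0664). MTF1 had -0.29, -0.0040 and -0.12 in S2A and 0.19, -0.048 and 0.032 in S5A, against -0.53, -0.45 and -0.38 in wild-type, where alone it fell (by 0.45, SE 0.10, limma adjusted p = 0.00152). Here the mutants lay wholly above wild-type, with a difference of 0.32 for S2A (adjusted p = 0.569) and of 0.51 for S5A (limma adjusted p = 0.0322).

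None of the 8 genes for upkeep of mitochondrial DNA, the 19 for splicing, processing and decay of mitochondrial RNA or the 13 translational activators was called in a strain difference by limma. Of all features, 0% were called for S2A minus wild-type, 7.95% for S5A minus wild-type and 3.31% for S5A minus S2A, so few calls would fall in lists of this size. In S5A minus wild-type, 1, 2 and 3 of these genes in that order had an unadjusted p below 0.05 (all features: 31.6%). The extremes were 0.36 for PIF1, a DNA helicase, and -0.027 for MHR1, which acts in recombination, then 0.43 for SUV3, the helicase of the mitochondrial RNA degradosome, and -0.51 for RPM2, the protein of mitochondrial RNase P, and 0.36 for PET309, an activator of COX1 translation, and -0.47 for CBP3, which acts in COB translation. SUV3 fell in every strain, by 0.98 in S2A, 0.40 in S5A and 0.83 in wild-type (limma adjusted p = 1.34e-05, 0.00675 and 4.50e-05), and the S5A call was lost without S5A replicate 2 (adjusted p = 0.0621).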

How the data were processed

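Values were the deposited log2 ratios of salt-treated over unstressed RNA, which the authors had normalized from tiled 2-colour arrays and summarised per feature. The genome build of the features and the primer of cDNA synthesis are not given in the sources used here. The 5645 features, of 6868, that no array lacked entered a limma 3.58.1 model (R 4.3.3) holding a mean for each strain and no replicate block, and p-values were adjusted by Benjamini-Hochberg. The methods set their thresholds of 0.05 and 0.025 on Storey's q-value, and here they were set on the Benjamini-Hochberg p. Deviations of same-numbered arrays correlated at 0.15 to 0.39 in all 6 pairs with wild-type, but at 0.062 in 1 of the 3 pairs of S2A and S5A arrays. The numbers, which the labels give, were not used as pairs in the main fit, so its p-values for differences from wild-type leave this correlation out. The paper describes the wild-type, S2A and S5A strains as paired in a figure legend. Its methods kept the dye orientation the same within paired mutant and wild-type samples. Neither place says which arrays form a pair. A fit with the numbers as a block was run as an alternative. The members and the gene lists were chosen with earlier results of these data known. Named are all measured protein genes and rRNAs, and among intron frames and tRNAs those called between strains and the largest and smallest mean changes, RPO41 and MTF1, and the extremes of each nuclear list. QCR2, QCR8, QCR9, ATP8, AI5_ALPHA, the intron frames AI1, AI2 and AI4 and the tRNAs without complete values were added after their values were seen. Gene names came from a RefSeq table of locus tags, which matched 29 of the 38 members and was used for names only. Alternatives were other centring, scaling, filters, adjustments, weights and thresholds, a replicate block, and each array left out; leaving out 2 arrays together was chosen after seeing the data. The scripts were tested on simulated data. No sequences were used here. The number of arrays limits the precision.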

Additional observations from a re-analysis of the deposited data

Results flagged for a closer look

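BI3, the maturase reading frame of a COB intron, differed between the mutants, by 1.05 for S5A minus S2A (limma adjusted p = 0.0132). The call was lost when any one of the 6 arrays of these strains was left out. COX3 had only negative values in S2A and only positive values in wild-type, with a difference of -0.59 for S2A minus wild-type, but the difference did not pass the test (limma adjusted p = 0.569).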

How the results depend on the processing

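The count of genes called in S2A after NaCl stayed within 1.5 times its value, and the counts of S2A and S5A differences from wild-type stayed at 0, under every alternative run. The S5A and wild-type NaCl counts of 7 were 12 and 13 by Storey's q-value, and the wild-type count was 3 with wild-type replicate 2 and S2A replicate 3 both left out. Leaving out one array gave 8 to 11 called genes in S2A, 1 to 8 in S5A and 2 to 10 in wild-type. The S5A minus S2A count of 1 was 3 with array weights, 2 at the other threshold and 0 with both of those arrays left out, and 0 to 1 without one array. The nuclear partner genes called for S5A minus wild-type, 3 as reported, were 1 after quantile normalization, 0 after scaling to one spread, 0 with values on at least 2 arrays per strain, 0 with only the arrays compared, 11 with array weights, 8 by Storey's q-value, 8 at the other threshold, 0 with both arrays left out, and 0 to 2 without one array. These counts, and those with a replicate block, are given without the shares of all features called in the same fits. A changed count therefore does not show a change particular to these genes. The cause was not tested.

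With a replicate block, the nuclear partner count was 6 (ATP20, COR1, CYT1, QCR8, QCR9 and RIP1), and the mitochondrial counts were 10 in S2A, 7 in S5A and 10 in wild-type after NaCl, and 0, 0 and 1 for S2A minus wild-type, S5A minus wild-type and S5A minus S2A. The block changed no call of a mitochondrial gene between strains. For the responses and for S5A minus S2A the arrays share only a number, although 9 of 9 arrays correlated best with their own number, which is a hint from the data.

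The mean over the mitochondrial genes was -0.14 in S2A, 0.20 in S5A and 0.45 in wild-type without intron frames, where the tRNAs weigh more, and the median was -0.21 in S5A and -0.10 in wild-type. Without one array the mean was -0.56 to -0.31 in S2A, -0.12 to -0.020 in S5A and 0.029 to 0.17 in wild-type.

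Among the values run singly, which are the named genes with a value on every array and the calls given for QCR2, QCR8, QCR9, RPO41, MTF1 and SUV3, only values that had not passed the test changed sign. Some responses that had not passed did pass under alternatives. Among them were ATP6 in wild-type (7 of 20 alternatives), the 21S rRNA in wild-type (5 of 20) and tE(UUC)Q in S5A (8 of 20). Median centring moved arrays by up to 0.11 and gave 0.022 for the 15S rRNA and 0.010 for COX1 in S5A after NaCl. In wild-type after NaCl, array weights and leaving out both arrays gave -0.073 and -0.029 for AI3, -0.087 and -0.056 for COX1, and -0.038 and -0.14 for COX2. For S2A minus wild-type, OLI1 was -0.00016 after quantile normalization, -0.00044 after scaling, -0.069 with array weights and -0.35 without both arrays, which also gave 0.054 for COX2 and 0.37 for tE(UUC)Q. For S5A minus S2A, quantile normalization and scaling gave -0.035 and -0.030 for AI4, and leaving out both arrays gave -0.080 for COX2, -0.031 for COX3, 0.11 for OLI1 and -0.40 for tE(UUC)Q. For S5A minus wild-type, array weights gave 0.034 for ATP6, 0.058 for COX1, -0.0054 for AI1 and 0.0069 for AI4, quantile normalization and scaling gave -0.12 for AI1 in both, -0.047 and -0.039 for BI4 and 0.084 and 0.077 for tK(UUU)Q, which was 0.021 with array weights, and leaving out both arrays gave -0.047 for the 21S rRNA, -0.20 for AI1, 0.0043 for COX1 and 0.42 for tK(UUU)Q.

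Leaving out one array also turned the sign of some of these values, and their ranges over the 9 such fits follow. After NaCl they were -0.23 to 1.82 for tE(UUC)Q in S2A, -0.0028 to 0.18 for OLI1 in S5A, and, in wild-type, -0.029 to 0.14 for AI3, -0.056 to 0.087 for COX1 and -0.14 to 0.30 for COX2. For S2A minus wild-type OLI1 ranged over -0.18 to 0.28 and AI4 over -0.35 to 0.094. For S5A minus S2A the ranges were -0.044 to 0.38 for AI3, -0.10 to 0.33 for AI4, -0.080 to 0.26 for COX2, -0.033 to 0.16 for COX3, -0.34 to 0.11 for OLI1 and -0.40 to 1.64 for tE(UUC)Q. For S5A minus wild-type they were -0.047 to 0.24 for the 21S rRNA, -0.20 to 0.18 for AI1, -0.31 to 0.21 for AI4, -0.28 to 0.11 for AI5_BETA, -0.27 to 0.11 for ATP6, -0.24 to 0.15 for BI2, -0.060 to 0.21 for BI4, -0.21 to 0.071 for COB, -0.14 to 0.0043 for COX1, -0.24 to 0.078 for OLI1, -0.93 to 0.42 for tK(UUU)Q, -0.20 to 0.14 for MHR1 and -0.23 to 0.13 for QCR6.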
